A study of Mus musculus with 2 samples.

Results

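The immunity-related GTPases (IRGs) are a family of interferon-inducible GTP-binding proteins, and 6 of their genes, Iigp1, Tgtp1, Tgtp2, Irgm1, Irgm2 and Igtp, were followed here across cell classes and liver zones. They were found by gene symbol, and all 6 are among the 27998 genes of the deposited tables. The 6 were chosen because an earlier look at these counts showed them low in the HKO library, so the HKO to WT ratios given here describe that choice and test nothing. The tissue was liver from 12-week-old mice of the C57BL/6 strain, taken for single-nucleus RNA sequencing 48 h after PHx, partial hepatectomy, in which part of the liver is cut away and the rest grows back. The HKO library comes from the mice named Sox9HKO and the WT library from those named Sox9f/f, in which Sox9 carries the loxP sites that Cre recombinase cuts. Both groups had the same strain background, age, operation and time after it. There was 1 library per group, the labels leave HKO unexplained, and the Cre driver and the number of animals behind a library are not given in the sources used here. No difference between the libraries therefore has a replicate check, no test was possible, and every interval in parentheses is an exact 95% interval for counting error only.

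IRG proteins are part of cell-autonomous defence in mice. Interferon-gamma binds its receptor (Ifngr1 and Ifngr2), which signals through the kinases Jak1 and Jak2, and transcription factors that include Irf1 then switch on the IRG genes. Effector IRGs, which include Irga6, the product of Iigp1, and Irgb6, the product of the Tgtp genes, load onto the vacuoles of intracellular parasites and bacteria and break them. Regulator IRGs, Irgm1, Irgm2 and Irgm3, the last being the product of Igtp, sit on the cell's own membranes and keep the effectors in their inactive, GDP-bound state. Hepatocytes answer interferon-gamma strongly, and IRGs are among its best known targets in mouse liver.

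Promoters of 5 members, all but Iigp1, were read from RefSeq (GRCm38.p6), to show the interferon elements these 5 genes carry. The promoter of Iigp1 was left out, so the single-gene matches below do not describe it or the family as a whole. Of each promoter the 150 bases before the start are given, 5′ to 3′ on the gene's strand. Capitals mark GAS matches (gamma-activated site, an element of interferon-gamma response genes, searched as TTCNNNGAA) and ISRE core matches (interferon-stimulated response element, bound by IRF family factors, searched as GAAANNGAAA), on either strand, from 250 bases before to 50 after the start.
Tgtp1, chr11:48992247-48992396, minus strand: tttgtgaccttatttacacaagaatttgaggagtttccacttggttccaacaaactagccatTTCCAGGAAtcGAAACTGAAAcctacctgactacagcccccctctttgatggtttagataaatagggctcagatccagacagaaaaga
Tgtp2, chr11:49064213-49064362, minus strand: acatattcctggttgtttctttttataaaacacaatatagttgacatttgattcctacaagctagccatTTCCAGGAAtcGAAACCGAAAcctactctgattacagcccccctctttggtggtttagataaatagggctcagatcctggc
Igtp, chr11:58199406-58199555, plus strand: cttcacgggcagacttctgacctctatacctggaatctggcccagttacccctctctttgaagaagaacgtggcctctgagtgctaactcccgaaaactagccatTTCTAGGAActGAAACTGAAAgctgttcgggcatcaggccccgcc
Irgm2, chr11:58214827-58214976, plus strand: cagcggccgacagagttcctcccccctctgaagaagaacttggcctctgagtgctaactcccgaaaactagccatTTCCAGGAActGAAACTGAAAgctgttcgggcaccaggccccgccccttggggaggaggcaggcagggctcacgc
Irgm1, chr11:48871421-48871570, minus strand: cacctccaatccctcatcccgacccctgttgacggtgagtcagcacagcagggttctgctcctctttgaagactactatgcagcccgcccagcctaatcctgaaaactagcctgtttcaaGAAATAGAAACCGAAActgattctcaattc
In Tgtp1, Tgtp2, Igtp and Irgm2 a GAS match was followed after 2 bases by an ISRE core match, with the GAS match beginning 88, 81, 45 and 75 bases before the start. Irgm1 held 2 overlapping ISRE core matches, beginning 30 and 24 bases before the start, and no GAS match in this window. Of 32851 mouse promoters of the same length, 8.298% held a GAS match, 3.443% an ISRE core match and 0.4536% both. A GAS match with an ISRE core match within 2 bases after it was found in 5 promoters, those of Tgtp1, Tgtp2, Igtp, Irgm2 and Gm12185, an IRG gene that overlaps Tgtp1. That spacing was chosen after these promoters had been read. Igtp and Irgm2 had 68.15% of bases the same over 270 aligned positions without a gap, and Tgtp1 and Tgtp2 51.71% over 292, while all other pairs had 33.72% to 39.39%. A match describes letters only, and binding was not measured.

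The HKO library held 14912 barcodes and 61123904 unique molecular identifiers (UMIs, each standing for 1 captured transcript), and the WT library 14701 barcodes and 64609301 UMIs. Barcodes under 2000 UMIs numbered 3856 in HKO against 288 in WT, and 70 barcode sequences occurred in both libraries. Nuclei were grouped by marker genes into hepatocyte-like (8681 HKO and 10939 WT nuclei), endothelial-like (2344 and 1124), macrophage-like (1781 and 1052), stellate-like (1149 and 637) and T/NK-like (284 and 105) classes, with smaller B-like, dendritic-like and cholangiocyte-like ones. In each of the first 5 classes, different clusters held most of the HKO and of the WT nuclei, so the type and the library cannot be told apart at cluster level. All 15 hepatocyte markers were detected, but their summed level differed between the hepatocyte-like nuclei of the libraries, at 15568 CPM (counts per 1000000 UMIs of the class) in HKO against 28221 CPM in WT. In the other 4 of these classes the median marker still stood at 77.1% to 91.4% of its own level in the hepatocyte-like nuclei of HKO, and at 84.2% to 97.9% of that in WT, so hepatocyte RNA was present in every class. Sox9, the gene targeted in HKO, was at 5.77 CPM (220 UMIs) in HKO against 11.4 CPM (532 UMIs) in WT hepatocyte-like nuclei. Which part of Sox9 is deleted the sources used here do not give, and a 3' tag outside it checks nothing.

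**Figure D1:**
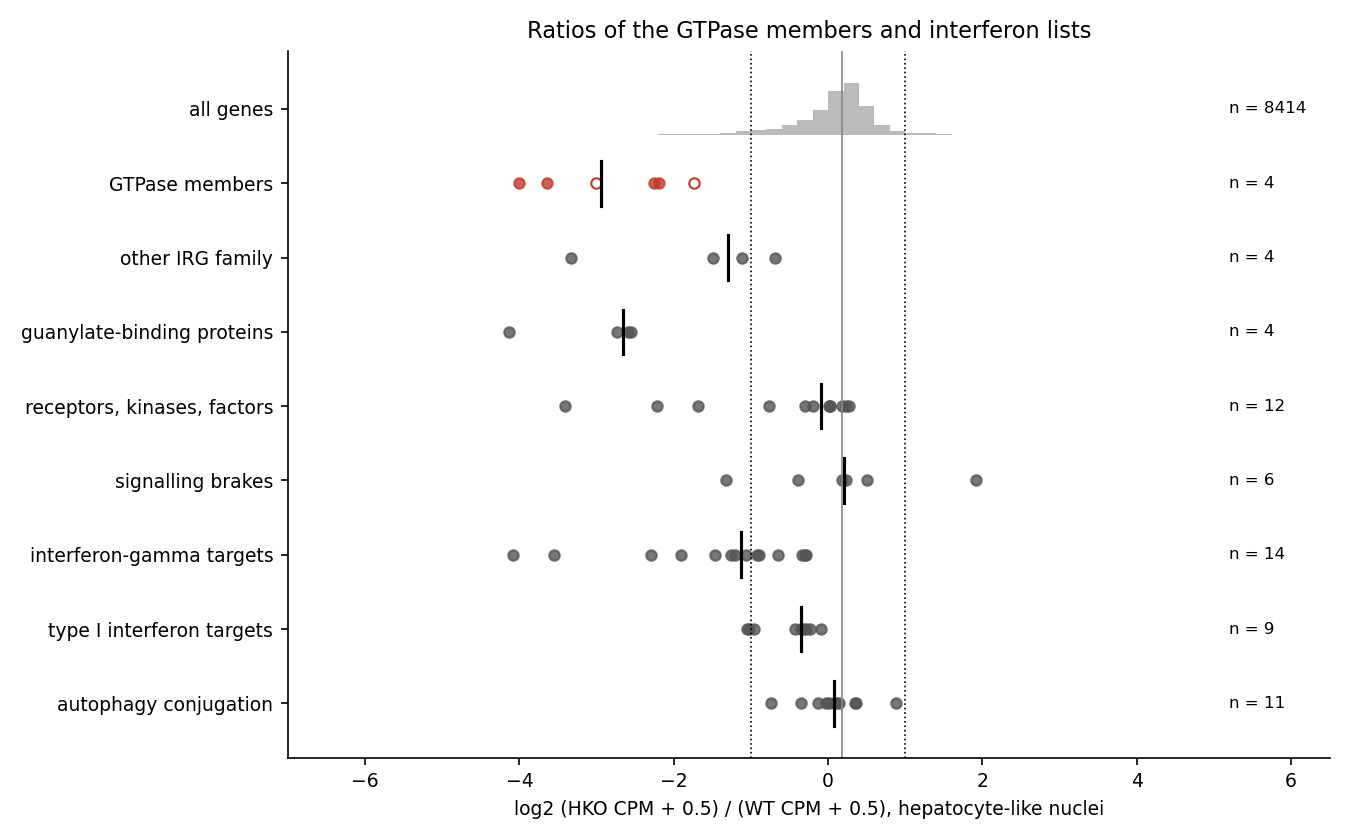
Log2 ratio of HKO over WT levels in hepatocyte-like nuclei, 1 point per gene measured at a mean of at least 10 CPM, with the number of genes at the right. Open circles are Tgtp1 and Tgtp2, which lie under that level and are not in the member median. Black bars are list medians, the grey line is the median of all 8414 genes at 0.18, and dotted lines mark 1 log2 unit either way. The 4 measured members lie between -4.01 and -2.19.

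All 6 genes were lower in HKO than in WT hepatocyte-like nuclei, by 4.61 to 16.2 times, where 4.73% of the 8414 genes measured were lower by at least 1 log2 unit. Iigp1, the effector that damages the vacuole membrane, had 116 CPM (112 to 119, 4411 UMIs) in HKO against 1869 CPM (1856 to 1881, 87520 UMIs) in WT, 16.2 times lower in HKO (15.7 to 16.7). Tgtp1 had 0.603 CPM (0.382 to 0.905, 23 UMIs) in HKO against 8.41 CPM (7.60 to 9.29, 394 UMIs) in WT, 14.0 times lower (9.17 to 22.3). Tgtp2 had 0.629 CPM (0.403 to 0.936, 24 UMIs) in HKO against 3.27 CPM (2.77 to 3.83, 153 UMIs) in WT, 5.19 times lower (3.36 to 8.35). The split between Tgtp1 and Tgtp2 is uncertain, as set out with the gene positions.

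Among the regulators, Irgm1 and Irgm2 had smaller ratios and Igtp had one close to that of Iigp1. Igtp had 7.996 CPM (7.12 to 8.95, 305 UMIs) in HKO against 105.3 CPM (102.4 to 108.3, 4932 UMIs) in WT, 13.2 times lower in HKO (11.7 to 14.8). Irgm1, the regulator known also for protection against mycobacteria, had 16.8 CPM (15.5 to 18.1, 639 UMIs) in HKO against 82.1 CPM (79.5 to 84.7, 3845 UMIs) in WT, 4.90 times lower (4.51 to 5.34). Irgm2 had 44.5 CPM (42.4 to 46.6, 1696 UMIs) in HKO against 204.8 CPM (200.8 to 209.0, 9593 UMIs) in WT, 4.61 times lower (4.37 to 4.85). The intervals of Irgm1 and Irgm2 overlapped each other, and neither overlapped those of Iigp1 and Igtp. The size of the HKO to WT ratio therefore did not follow the division into effectors and regulators in these libraries.

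A gene was counted as measured at a mean of at least 10 CPM over the 2 libraries and as lower at a log2 ratio of -1 or less, computed after adding 0.5 CPM to both. By this count 4 of 4 measured members were lower, beside the 4.73% of all genes (398 genes), and higher genes made up 3.04% (256 genes). The rule that chose the members used this contrast, so the counts describe it only. Tgtp1 and Tgtp2 did not reach the minimum, and Igtp reached it only through WT, so its level in HKO had to lie under that in WT. The measured members' median log2 ratio was -2.95, beside 0.18 for all genes, and Iigp1 (-4.01), Igtp (-3.64), Irgm1 (-2.26) and Irgm2 (-2.19) ranked 5, 9, 47 and 54 from the lowest. Scaling by median ratios or TMM, both of which assume that most genes are unchanged, moved the all-gene median to 0.05 in either case, and the same 4 members stayed lower.

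The make-up of the family's transcripts also differed. Summed over the 6 genes, hepatocyte-like nuclei held 186 CPM (7098 UMIs) in HKO against 2273 CPM (106437 UMIs) in WT, 12.2 times lower in HKO. Iigp1 gave 62.1% of these UMIs in HKO against 82.2% in WT, and Irgm2 gave 23.9% in HKO against 9.01% in WT. These are shares of UMIs and do not compare levels between genes, which would need a correction for length and capture.

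In GRCm38 (GENCODE vM21 annotation) the members lie on 2 chromosomes, and all 6 are annotated as protein-coding. Iigp1 (ENSMUSG00000054072) is on the plus strand of chromosome 18, 60376027 to 60392634. The other 5 are on chromosome 11. Irgm1 (ENSMUSG00000046879) spans 48861968 to 48871683, Tgtp1 (ENSMUSG00000078922) 48985327 to 48994172 and Tgtp2 (ENSMUSG00000078921) 49057194 to 49064206, all on the minus strand. Igtp (ENSMUSG00000078853) spans 58199556 to 58207591 and Irgm2 (ENSMUSG00000069874) 58199618 to 58222782, both on the plus strand.

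Several of these gene models share bases, which limits what single values mean. Igtp lies over Irgm2 on the same strand for 7974 bases, 99.2% of Igtp and 34.4% of Irgm2, but no 90-base run from the last 500 bases of either transcript, where 3' tags fall, occurs in the other. Tgtp1 and Tgtp2 share all 411 such runs of their last 500 bases, and Tgtp1 also lies over Gm12185 on the same strand for 6900 bases, so reads could be split between these copies or dropped. Olfr56 is annotated on the opposite strand across both Tgtp genes, and the sources used here do not give whether counting used strand. Iigp1, Igtp, Irgm1 and Irgm2 had 0 of 411 shared runs in their last 500 bases. Over whole transcripts, 129 of 1933 runs of Igtp occurred in Irgm2 and 105 of 3439 runs of Irgm2 in Igtp. Reads from elsewhere in the overlap of these genes, introns included, were not tested.

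**Figure D2:**
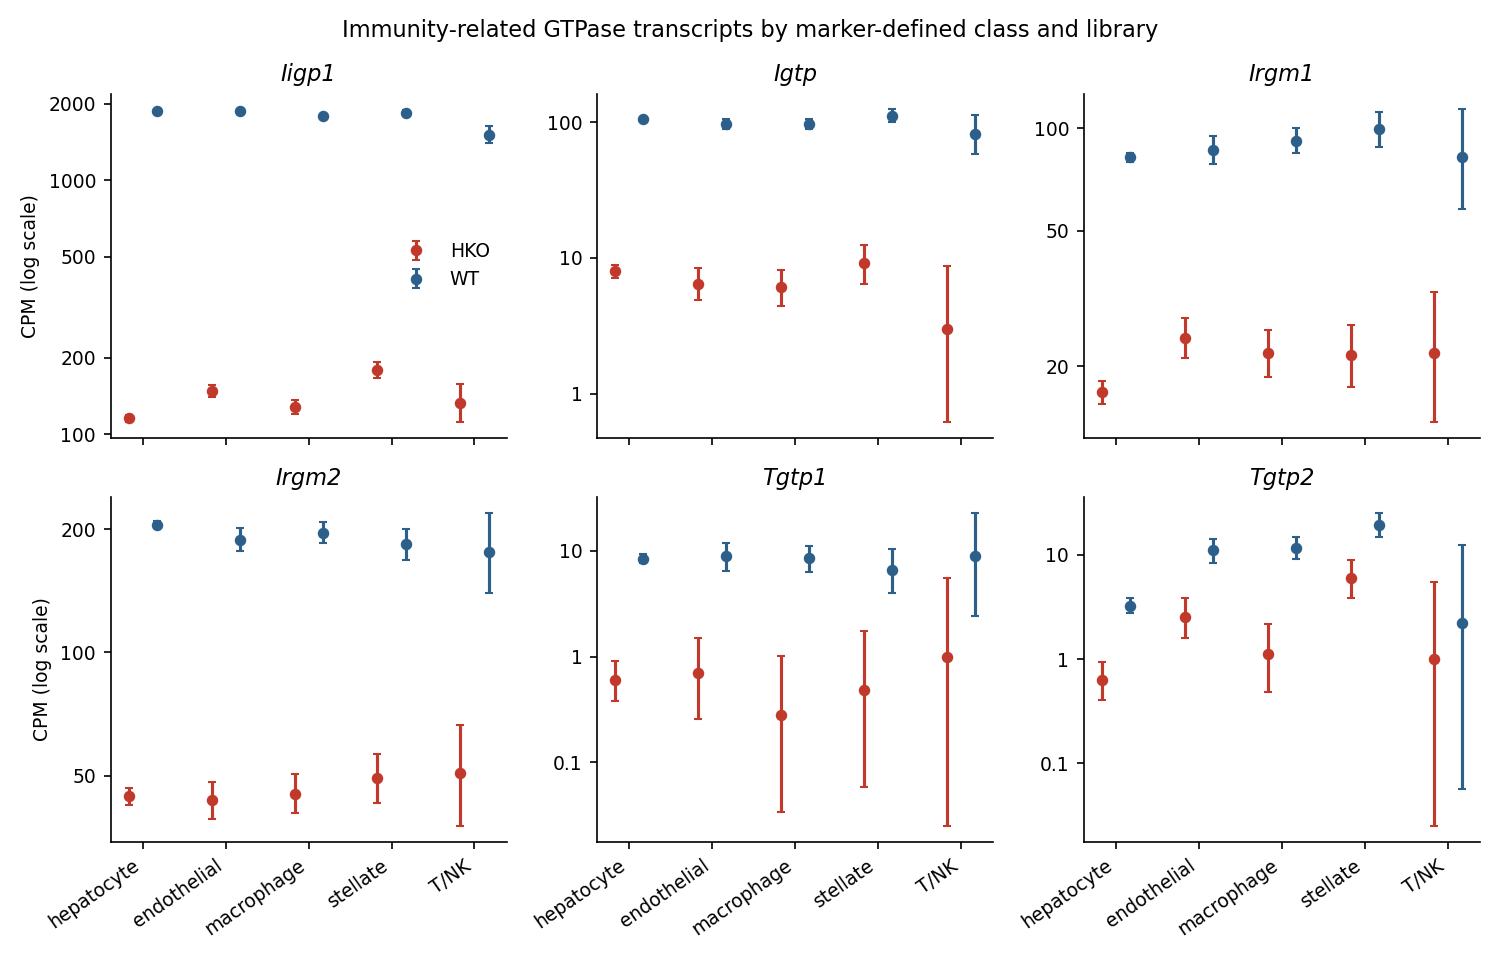
Level of each gene in 5 cell classes (CPM, log scale, with a separate scale in each panel), HKO in red left of WT in blue, 1 library each, with exact 95% counting intervals. Iigp1 lies between 116 and 178 CPM in the 5 HKO classes and between 1512.5 and 1869 CPM in the 5 WT classes.

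Iigp1 was lower in HKO in every class named by markers. In stellate-like nuclei, the vitamin A-storing cells along the sinusoids, it had 178 CPM (166 to 192) in HKO against 1831 CPM (1782 to 1881) in WT, 10.3 times lower in HKO. Endothelial-like nuclei gave 148 CPM (140.0 to 156) in HKO against 1866 CPM (1829 to 1903) in WT, 12.6 times lower. Macrophage-like nuclei gave 128 CPM (119.6 to 136) in HKO against 1793 CPM (1760 to 1827) in WT, 14.0 times lower. T/NK-like nuclei gave 133 CPM (111 to 158) in HKO against 1512.5 CPM (1401 to 1631) in WT, 11.4 times lower. The smaller classes gave 87.7 CPM in HKO against 1396 CPM in WT for B-like nuclei, 164 CPM in HKO against 1239 CPM in WT for dendritic-like nuclei and 159.7 CPM in HKO against 1587 CPM in WT for cholangiocyte-like nuclei, from 44 to 191 UMIs each.

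The order of the classes differed between the libraries. In HKO the order was stellate-like, dendritic-like, cholangiocyte-like, endothelial-like, T/NK-like, macrophage-like, hepatocyte-like and B-like, and each overlapped its neighbour in counting interval except the macrophage-like and hepatocyte-like pair. Relative to hepatocyte-like nuclei of HKO, Iigp1 was 1.54 times higher in stellate-like (1.43 to 1.67), 1.28 times higher in endothelial-like (1.20 to 1.36) and 1.10 times higher in macrophage-like nuclei (1.03 to 1.19). In WT the order was hepatocyte-like, endothelial-like, stellate-like, macrophage-like, cholangiocyte-like, T/NK-like, B-like and dendritic-like, with each interval overlapping its neighbour's, and the ratios to the hepatocyte-like level were 0.998 in endothelial-like (0.978 to 1.02), 0.980 in stellate-like (0.953 to 1.01), 0.960 in macrophage-like (0.940 to 0.979) and 0.809 in T/NK-like nuclei (0.749 to 0.873). The median hepatocyte marker, each set against its own level in hepatocyte-like nuclei, stood at 77.1% in HKO against 84.4% in WT stellate-like nuclei, and at 85.2% in HKO against 92.9% in WT endothelial-like nuclei. A transcript of the class itself and RNA from hepatocytes cannot be told apart in these values, and the part of that RNA in the class levels was not tested. Where HKO nuclei lay in a cluster made mostly of WT nuclei, Iigp1 had 101 CPM (69.2 to 143) in 59 stellate-like nuclei, under that class's level, and 149 CPM (89.6 to 232) in 49 endothelial-like nuclei. WT nuclei in HKO-led clusters gave 1447 CPM (1280 to 1630) in 40 stellate-like and 1858.5 CPM (1546 to 2216) in 13 endothelial-like nuclei.

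The other members were lower in HKO in these classes too. In the endothelial-like class 4 of 4 measured members were lower, against 4.44% of the 8917 genes measured there, in the macrophage-like class 4 of 4 against 3.84% of 9073, and in the T/NK-like class 4 of 4 against 6.84% of 8814. In the stellate-like class, where Tgtp2 reached the minimum as well, 5 of 5 were lower against 4.47% of 9150. Igtp in all of these classes, and Tgtp2 in the stellate-like one, were under 10 CPM in HKO and reached the minimum only through WT, so the counts and medians are description only. These classes come from the same 2 libraries and hold hepatocyte RNA, so they do not repeat the hepatocyte-like values independently. The members' median log2 ratios were -2.88 in endothelial-like, -2.96 in macrophage-like, -2.18 in stellate-like and -2.70 in T/NK-like nuclei, beside all-gene medians of 0.11 to 0.16. Summed over the 6 genes, the level was 8.50 times lower in stellate-like and 8.87 times lower in T/NK-like nuclei of HKO, and 10.0 and 10.9 times lower in endothelial-like and macrophage-like ones.

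Tgtp2 differed in level between classes within each library. It had 5.99 CPM in HKO against 19.6 CPM in WT stellate-like nuclei, 2.54 CPM in HKO against 11.1 CPM in WT endothelial-like nuclei, and 1.11 CPM in HKO against 11.7 CPM in WT macrophage-like nuclei. Against hepatocyte-like nuclei this was 9.52 times higher in HKO (5.21 to 17.4) and 5.99 times higher in WT (4.33 to 8.18) for the stellate-like class. For the endothelial-like class it was 4.04 times higher in HKO (2.16 to 7.52) and 3.40 times higher in WT (2.47 to 4.63), and for the macrophage-like class 1.77 in HKO (0.687 to 4.07) and 3.57 in WT (2.65 to 4.77). Its near copy Tgtp1 had 0.479 CPM in HKO against 6.63 CPM in WT stellate-like nuclei and showed no such excess. Because the last 500 bases of Tgtp1 and Tgtp2 are the same in all runs tested, the part of read division between them in these values was not tested.

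The regulators varied less than Tgtp2 over the endothelial-like, macrophage-like and stellate-like classes. Irgm1 had 24.2 CPM in HKO against 86.3 CPM in WT endothelial-like nuclei, 21.8 CPM in HKO against 91.8 CPM in WT macrophage-like nuclei, and 21.6 CPM in HKO against 99.2 CPM in WT stellate-like nuclei. Within HKO these were 1.45 (1.23 to 1.69), 1.30 (1.09 to 1.55) and 1.29 (1.02 to 1.61) times the hepatocyte-like level, and all 3 intervals lay above 1. Within WT they were 1.05 (0.952 to 1.16), 1.12 (1.02 to 1.22) and 1.21 (1.07 to 1.36) times that level. In cholangiocyte-like nuclei Irgm1 was at 2.86 (1.59 to 4.75, 15 UMIs) in HKO against 1.44 (0.744 to 2.52, 12 UMIs) in WT. Irgm2 was between 43.5 and 50.6 CPM in the 5 HKO classes and between 176.0 and 204.8 CPM in the 5 WT classes, 3.48 to 4.61 times lower in HKO. Igtp was between 6.12 and 9.10 CPM in HKO and between 97.6 and 112 CPM in WT over the endothelial-like, macrophage-like, stellate-like and hepatocyte-like classes, and had 3 UMIs in HKO against 37 UMIs in WT T/NK-like nuclei. It was 15.1 times lower in HKO in endothelial-like, 16.0 times in macrophage-like and 12.3 times in stellate-like nuclei.

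**Figure D3:**
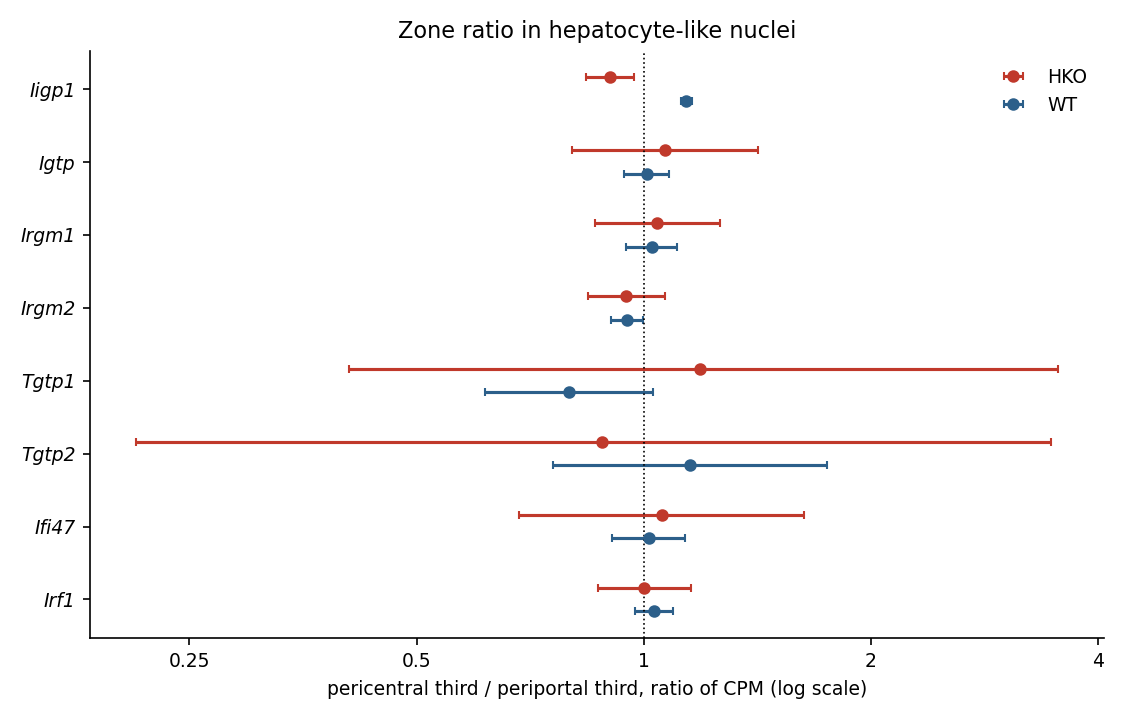
Level in the pericentral range over that in the periportal range of hepatocyte-like nuclei (ratio of CPM, log scale; each range is the end group of 3 of nearly equal size by zone score), HKO in red above WT in blue, 1 library each, with exact 95% counting intervals. Iigp1 lies at 0.902 in HKO against 1.14 in WT, on different sides of 1.

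Liver lobules run from the portal tract to the central vein, and hepatocytes were ranked along this axis, within each library, by 18 pericentral minus 18 periportal genes. The ranking was cut into 3 ranges of nearly equal size, pericentral, middle and periportal, which are not cell types, with 11.6% of HKO against 12.0% of WT nuclei lying within 0.05 of a limit. Iigp1 ran in different directions along the axis in the 2 libraries. From the pericentral to the middle and the periportal range it had 109 CPM (103.5 to 115), 116 CPM (110.3 to 122) and 121 CPM (115 to 127) in HKO, and 2019 CPM (1997 to 2042), 1813 CPM (1792 to 1835) and 1773 CPM (1752 to 1794) in WT. The pericentral to periportal ratio was 0.902 (0.838 to 0.970) in HKO against 1.14 (1.12 to 1.16) in WT. Iigp1 was accordingly 18.5, 15.6 and 14.6 times lower in HKO in the pericentral, middle and periportal range. Whether the 2 slopes differ between livers could not be tested with 1 library each.

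The other members showed little zonation. Irgm2 had ratios of 0.948 (0.843 to 1.07) in HKO against 0.9498 (0.9043 to 0.9975) in WT, Irgm1 1.04 (0.861 to 1.26) in HKO against 1.02 (0.948 to 1.11) in WT, and Igtp 1.07 (0.803 to 1.42) in HKO against 1.01 (0.942 to 1.08) in WT. With 5 to 13 UMIs in each HKO range, Tgtp1 and Tgtp2 gave intervals too wide to order. Irf1 was at 1.002 (0.869 to 1.15) in HKO against 1.03 (0.975 to 1.09) in WT. Hepatocyte-like nuclei were also cut into 3 groups of nearly equal size by depth or by mitochondrial RNA. Between the end groups, the counting intervals of Iigp1 were apart in WT and overlapped in HKO. In HKO Iigp1 had 118.5 CPM (110.3 to 127.2) in the group with the fewest UMIs and 115 CPM (110.6 to 120.0) in that with the most. It had 119 CPM (113.2 to 124.7) at the lowest and 112 CPM (106.2 to 118.6) at the highest mitochondrial share. In WT it had 1710 CPM (1682.4 to 1737.6) in the group with the fewest UMIs and 1973 CPM (1955.7 to 1990.4) in that with the most. It had 1969 CPM (1949.0 to 1988.3) at the lowest and 1733 CPM (1709.7 to 1756.3) at the highest mitochondrial share. The part of depth and mitochondrial RNA in the zone ratios was not tested.

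**Figure D4:**
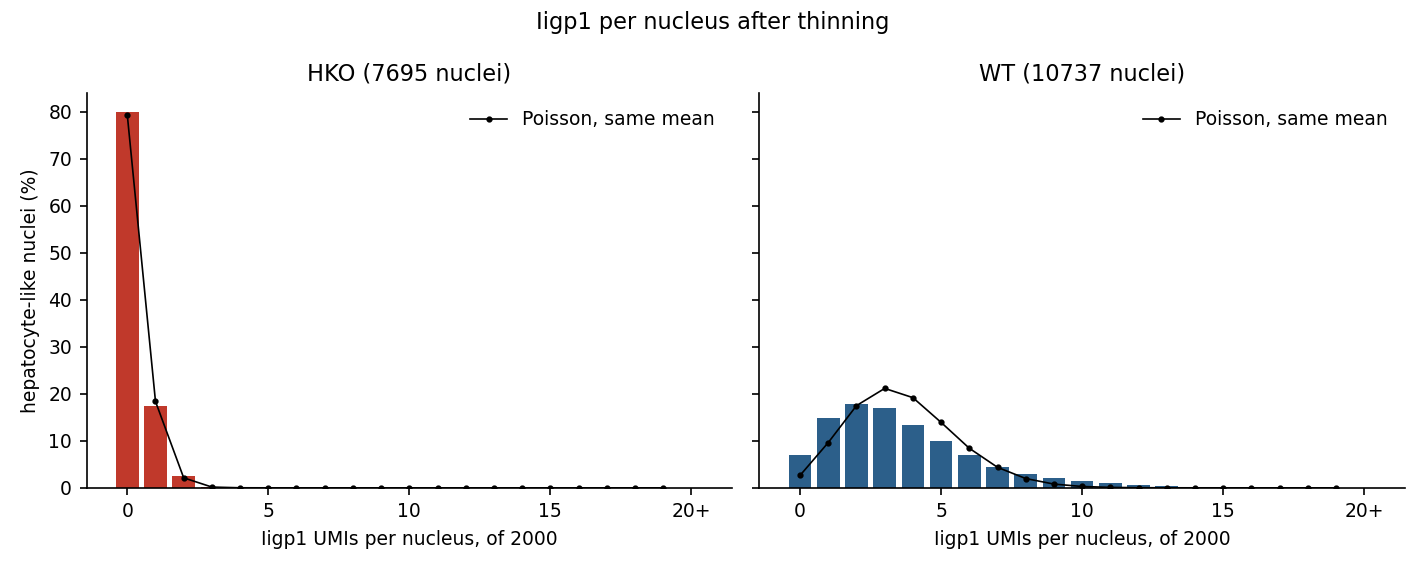
Share of hepatocyte-like nuclei (%) by number of Iigp1 UMIs after each nucleus was thinned to 2000 UMIs, HKO left and WT right, with a line for a Poisson distribution of the same mean. HKO nuclei are mostly at 0 and follow the line, and WT nuclei spread wider than it. The means differ, so distance from the line does not compare relative spread between the libraries.

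Per nucleus, Iigp1 was nearly everywhere in WT and in a minority of nuclei in HKO. After thinning to 2000 UMIs, at least 1 Iigp1 UMI was found in 20.1% (19.2 to 21.04) of the 7695 HKO and in 93.1% (92.6 to 93.6) of the 10737 hepatocyte-like nuclei of WT, with 986 HKO and 202 WT nuclei left out as too shallow. Without thinning, the shares were 36.2% in HKO against 97.8% in WT, at median depths of 3913 UMIs in HKO against 3524 UMIs in WT. At least 3 UMIs were found in 0.234% of HKO against 60.5% of WT nuclei, and the highest nucleus had 7 UMIs in HKO against 22 in WT, where 3.70% of nuclei had at least 10. The median nucleus had 0 UMIs in HKO against 3 in WT.

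The variance over the mean among nuclei differed as well. At the same relative spread beyond counting error it rises with the mean, so it does not compare relative spread between these libraries. The mean was 0.232 UMIs in HKO against 3.63 UMIs in WT, and the variance over the mean was 1.07 in HKO against 1.98 in WT, where a Poisson distribution has 1. Nuclei without an Iigp1 UMI made up 79.9% in HKO against 6.92% in WT, beside 79.3% and 2.66% for a Poisson distribution of each mean. Among 253 genes with a mean of at least 1 UMI in WT, 21 had a higher variance over mean than Iigp1 and the median was 1.21. Among 2207 genes with a mean of at least 0.2 UMIs in HKO, 782 had a higher one and the median was 1.06. In endothelial-like nuclei, which had median depths of 2061.5 UMIs in HKO against 3266.5 UMIs in WT, the thinned shares with Iigp1 were 25.5% in HKO against 96.0% in WT, and in macrophage-like nuclei 21.4% and 93.4%. Thinning left out 1127 HKO and 22 WT endothelial-like nuclei, and 752 HKO and 17 WT macrophage-like nuclei, as too shallow. Without thinning, the shares were 35.8% in HKO against 99.4% in WT endothelial-like nuclei, and 32.4% against 98.8% in macrophage-like ones. The thinned shares in both classes were as high as the hepatocyte-like ones. Because every class held hepatocyte RNA, a nucleus that made the Iigp1 transcript cannot be told from one that took up free RNA. Among hepatocyte-like nuclei, Igtp was found in 1.74% of those of HKO against 19.2% of those of WT, Irgm1 in 2.92% in HKO against 14.7% in WT, and Irgm2 in 8.28% in HKO against 32.1% in WT. Tgtp1 was found in 0.117% in HKO against 1.56% in WT, and Tgtp2 in 0.156% in HKO against 0.661% in WT.

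WT hepatocyte-like nuclei rich in Iigp1 held more of some other interferon transcripts. In the 1411 nuclei with at least 7 Iigp1 UMIs, against the 2328 with at most 1, Irgm1 was 1.44 times higher (1.22 to 1.69), Irf1 1.26 times (1.12 to 1.43), Irgm2 1.22 times (1.10 to 1.35) and Igtp 1.19 times (1.03 to 1.38). Ifi47 gave 1.21 (0.9645 to 1.53), Tgtp1 1.10 (0.611 to 1.94) and Tgtp2 1.28 (0.406 to 3.87), intervals that include 1. The hepatocyte gene Alb was at 0.924 and the nuclear RNA Malat1 at 0.961 in the same comparison. In HKO, the 1549 nuclei with Iigp1 against the 6146 without gave 1.34 for Igtp (0.883 to 1.98), 1.14 for Irf1 (0.912 to 1.42), 1.12 for Irgm2 (0.927 to 1.34), 1.07 for Irgm1 (0.763 to 1.47) and 0.891 for Ifi47 (0.418 to 1.74), and each of these intervals includes 1. The groups were made by the Iigp1 count itself, and nuclei of a library share its free RNA and are not replicates.

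Other genes of the pathway were taken from lists, to be read beside all measured genes, of which 4.73% were lower and 3.04% higher, with a median log2 ratio of 0.18. Ifi47, Gbp4, Gbp6, Gbp8, Irf8, Cxcl10, Cd274, Psmb9 and Psmb10 were under 10 CPM in HKO and reached the minimum only through WT, so their levels in HKO had to lie under those in WT, and the counts and medians of their lists describe that filter as well. Of the other IRG family genes, 3 of 4 measured were lower in HKO and 0 were higher, with a median of -1.30. Ifi47 had 3.46 CPM in HKO against 39.5 CPM in WT, 11.4 times lower (9.57 to 13.7), within the members' range. Gm4841 had 16.3 CPM in HKO against 46.7 CPM in WT, and Gm4951 701 CPM in HKO against 1523 CPM in WT, 2.86 and 2.17 times lower. F830016B08Rik had 124.5 CPM in HKO against 201 CPM in WT, a log2 ratio of -0.69. The last 3 are neighbours of Iigp1, at 102.8, 128.2 and 73.0 kb from it on chromosome 18, and Ifi47 lies 12.4 kb from Tgtp2.

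Guanylate-binding proteins, the larger GTPases that act on the same vacuoles, were lower for 4 of 4 measured genes, with a median of -2.66. Gbp6 had 1.63 CPM in HKO against 36.9 CPM in WT, 22.7 times lower in HKO (17.6 to 29.7). Gbp4, at 2.28 CPM in HKO against 18.0 CPM in WT, Gbp8, at 4.06 CPM in HKO against 26.9 CPM in WT, and Gbp7, at 11.6 CPM in HKO against 70.7 CPM in WT, were 7.90, 6.63 and 6.08 times lower. This family has near-identical copies, so single values are uncertain.

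Of 12 measured receptors, kinases and transcription factors of interferon signalling, 3 were lower and 0 higher, with a median of -0.09. Among the lower genes were transcription factors. Irf1 had 30.8 CPM in HKO against 144.9 CPM in WT, 4.71 times lower in HKO (4.42 to 5.01), and Irf8 had 5.06 CPM in HKO against 17.4 CPM in WT, 3.45 times lower (2.94 to 4.05). The receptor and kinase genes had smaller ratios, and those named here other than Ifnar2 were chosen for their role after their values were seen. Ifngr1 stood at 14.0 CPM in HKO against 16.1 CPM in WT, Jak1 at 288 CPM in HKO against 238 CPM in WT, Jak2 at 40.3 CPM in HKO against 49.7 CPM in WT and Ifnar2, of the type I receptor, at 36.0 CPM in HKO against 61.5 CPM in WT. Stat2, a transcription factor of the type I pathway, had 341 CPM in HKO against 334 CPM in WT. Ifng itself, the cytokine gene of T and NK cells, had 5 UMIs in HKO against 4 UMIs in WT over all nuclei, too few to compare.

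Among 14 measured interferon-gamma targets 8 were lower and 0 higher, with a median of -1.13. The chemokine gene Cxcl10 had 1.05 CPM in HKO against 25.7 CPM in WT, 24.5 times lower in HKO (17.9 to 34.5), and the checkpoint ligand gene Cd274 4.90 CPM in HKO against 63.1 CPM in WT, 12.9 times lower (11.1 to 15.01). The immunoproteasome gene Psmb9 had 9.36 CPM in HKO against 47.8 CPM in WT, and the peptide transporter gene Tap1 18.8 CPM in HKO against 71.8 CPM in WT. Type I interferon targets gave 2 lower of 9, a median of -0.35, and ratios between -1.06 and -0.09. The lower ones were Herc6, at 66.3 CPM in HKO against 138 CPM in WT, and Rtp4, at 11.6 CPM in HKO against 24.0 CPM in WT, and 2 others with large ratios that did not pass were Parp14 (-0.97) and Ifih1 (-0.43). Many genes answer both interferon types, so the lists do not separate them.

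Negative regulators of the pathway gave 1 lower and 1 higher of 6 measured. Socs3, a feedback inhibitor of Jak kinases, had 20.1 CPM in HKO against 51.1 CPM in WT, 2.55 times lower in HKO. Trim24, a transcriptional co-repressor known to restrain interferon signalling in mouse liver, had 479 CPM in HKO against 127 CPM in WT, 3.78 times higher in HKO. Ptpn2 (0.50) and Irf2bp2 (-0.39) had smaller log2 ratios. The autophagy conjugation genes, whose products help to direct IRGs to vacuoles, gave 0 lower and 0 higher of 11 measured, with a median of 0.07. Among their larger log2 ratios were Atg7 (0.87), Atg3 (0.36) and Gabarapl1 (-0.36).

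Likeness to Iigp1 was measured by Pearson's r of log2 levels over 10 sums, the 5 larger classes in each library. The 8 closest of 8876 genes were Dpy19l3 (0.998), Irgm2 (0.996), Serpina6 (0.995), Fabp1 (0.994), Scd1 (0.994), Orm2 (0.993), Orm1 (0.993) and Irgm1 (0.993), and Igtp ranked 48 (0.986). The 10 sums share 2 libraries and their hepatocyte RNA, so any gene with a large gap between the libraries in every class scores high, and r describes that. Across the 10939 WT hepatocyte-like nuclei, within 1 library, genes among the 8 closest of 3540 were Gm4951 (0.151), Rnf213 (0.107), Cd274 (0.093), Airn (0.076), F830016B08Rik (0.074), Irf1 (0.072) and Esrrg (0.067), with Irgm1, Igtp and Irgm2 ranked 10, 31 and 43. Across the 8681 HKO nuclei the highest values were 0.056 for Fndc3a, 0.055 for Rab7, 0.051 for Sorbs2 and Arhgap35, 0.049 for Bmper and Cul4a and 0.048 for Nr1h4 and Abca6. These are weak values in sparse counts and are no finding.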

How the data were processed

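The authors deposited raw UMI counts per gene and barcode, not normalized, for 1 HKO and 1 WT liver library. The labels describe 3' tags from 10x libraries, and the submitters' processing notes name GRCm38, STAR, Cell Ranger 5.0.0 and Seurat 3.2.0 without saying what each was used for. The labels give nuclear RNA as the molecule but a total RNA extraction as the protocol. Groups come from the sample titles, since the genotype field holds the age.

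A barcode was kept if it had 500 or more genes and less than 10% of its UMIs from mitochondrial genes, which left 14902 in HKO and 14515 in WT. No doublet caller was run, and an alternative left out the 5% of barcodes with the most UMIs. The libraries were clustered jointly and uncorrected (scanpy 1.11.5, leidenalg 0.10.2, 2000 variable genes, 30 components, 15 neighbours, resolution 0.5), with the members, pathway lists and Sox9 left out of the variable genes. Clusters were named by marker lists with at least 3 markers more than 1 log2 unit above the other nuclei of the library. Hepatocyte-like clusters were then named among the rest, by at least 3 markers at any excess over the clusters already named. A marker had to reach 20 CPM in some cluster and a leading gene 50 CPM, and these limits were set after the data were seen. A cluster led by mitochondrial genes (32 HKO and 526 WT nuclei) and 1 other (246 HKO and 51 WT nuclei) stayed unnamed.

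For every class and library the counts were added up and expressed per 1000000 (CPM). Sums carry exact Poisson, ratios exact conditional and shares exact Clopper-Pearson intervals. Named genes were the 6 members, Sox9, the IRG family genes measured, up to 4 genes per other list with the largest ratios and the 8 most like Iigp1, leaving out unnamed gene models outside the IRG family. Ifng, Ifngr1, Jak1, Jak2, Stat2, Alb and Malat1 were added after their values were seen. Some genes that the rule gave are left out of the text. The members and lists were chosen with earlier results of these data known. Counts were also simulated with counting error only and with changes set beyond 1 log2 unit. On these, 200 of 200 changed genes were recovered and 0 unchanged genes were called among 8408 in all. The simulation checks the calculation, and it holds no variation between libraries and no free RNA. Alternatives covered scaling (median ratios, and TMM from R 4.3.3 with edgeR 4.0.16), the gene and UMI minimum, clustering, weights, pseudocount, floors, the zone score and thinning. Calculations ran in Python 3.11.15 with scipy 1.17.1, numpy 2.4.6, scikit-learn 1.9.0, igraph 0.11.9, pandas 2.3.3 and matplotlib 3.10.9.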

Additional observations from a re-analysis of the deposited data

Results flagged for a closer look

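The zonal slope of Iigp1 went opposite ways in the 2 libraries, with a pericentral to periportal ratio of 0.902 in HKO and 1.14 in WT. Iigp1 in macrophage-like over hepatocyte-like nuclei also lay on different sides of 1, at 1.10 in HKO and 0.960 in WT. In each case both counting intervals exclude 1, and the difference between the libraries was not tested, since there is 1 library per group.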

How the results depend on the processing

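No paired analysis was possible because there is 1 library per group. The 4 measured members stayed lower in HKO hepatocyte-like nuclei under all 13 alternatives of scaling, filters, clustering, weights and pseudocount, as did 6 of 6 at a minimum of 1 CPM and 3 of 3 at 50 CPM. The log2 ratio of Iigp1 was -4.01 and became -4.14 with median ratio size factors, -4.13 with TMM, -3.95 with equal weight per nucleus, -3.96 with a pseudocount of 5 CPM and -4.11 without clusters with haemoglobin genes among their leading genes. This last alternative left out clusters of 7446 HKO and of 5394 WT nuclei, the first holding most hepatocyte-like nuclei of HKO. The removal of those clusters, of cell-cycle-led clusters or of shared barcodes, and the addition of the mitochondrial-led cluster, were chosen after seeing the data. Igtp lay between -3.76 and -3.09, Irgm1 between -2.39 and -2.002, Irgm2 between -2.32 and -2.08, Tgtp1 between -4.11 and -1.26 and Tgtp2 between -2.04 and -0.55, the pseudocount of 5 CPM giving the smallest ratio of each. Genes past 1 log2 unit numbered 398 lower and 256 higher, of 8414 measured, against 624 and 434 of 12964 at a minimum of 1 CPM and 185 and 131 of 3707 at 50 CPM. With each library clustered alone, WT Iigp1 was 1887 CPM. In that clustering 4910 HKO and 9521 WT nuclei were hepatocyte-like, while 2557 HKO and 1449 WT nuclei were named erythroid-like. That name rests on 3 of 5 detected erythroid markers and is not secure. The HKO cluster was led by genes that include the hepatocyte genes Cyp2f2, Sds and Hal. The WT cluster was led by haemoglobin genes together with the hepatocyte genes Mup20 and Apoa2. Hepatocyte nuclei may therefore have been left out of the hepatocyte-like class here. The WT log2 zone ratio was 0.31 between the outer 10% of nuclei at either end of the score and 0.14 by the share of pericentral UMIs. The share of nuclei with Iigp1 was 10.7% in HKO against 77.6% in WT at 1000 UMIs, 0.234% and 60.5% for at least 3 UMIs and 36.2% and 97.8% without thinning, and the WT variance over mean at 1000 UMIs was 1.54. At a minimum of 1 CPM, 10 guanylate-binding protein genes and 2 negative regulators were lower, genes that can pass so low a minimum through WT alone. Without shared barcodes, Iigp1 was 115.5 CPM in HKO against 1870 CPM in WT hepatocyte-like nuclei. No direction reversed. Depth limits Tgtp1 and Tgtp2, which had at most 25 UMIs in any HKO class.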
